A study of Prunus persica with 12 samples.

Results

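The first ripening step of the peach cultivar 'Hu Jing Mi Lu' (HJ) was examined by comparing mesocarp, the edible flesh, at the stage numbered 2 (HJ2) with the stage numbered 1 (HJ1). Groups were taken from the sample titles, and the comparison rests on 4 of the 12 RNA-seq libraries of the series, 2 per stage. The labels give soft melting flesh for both stages, strong aroma and a Brix (soluble solids) of 12.1 for HJ2, and slight aroma with no Brix value for HJ1. The other 8 libraries are HJ at stage 3 (HJ3, strong aroma, soft melting) and 3 further cultivars at stage 2, with 2 libraries each. These are 'Yu Lu' (YL2) and 'Jin Xiu Huang Tao' (JX2), both soft melting with strong aroma, and 'Zhong Hua Shou Tao' (ZH2), hard melting with slight aroma and a Brix of 18. The labels give no days, firmness or harvest date for a stage number, and leave unsaid what the 2 libraries of a group were taken from. P-values therefore measure only the spread between these libraries, which may be technical.

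Peach is a climacteric fruit, in which a burst of the hormone ethylene accompanies ripening. Cell wall enzymes then loosen the flesh, most completely in melting types, and sugars, pigments and scent compounds accumulate. Lactones and the terpene linalool are known contributors to peach aroma, and the series was designed to look for genes tied to them and to softening. The deposited tables hold gene identifiers without names, and 0 of them matched the reference gene table, so no enzyme or pathway is assigned to any gene here and the labelled tissue could not be checked against its markers. In whole flesh, fewer cells of a type and less RNA per cell cannot be told apart.

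Expression values were RPKM (read counts scaled by gene length and by the total reads of the library). Depth worked back from the values was 2440928 and 3222252 reads in the HJ2 libraries, against 1942106 and 1205507 reads in the HJ1 libraries, so the stages also differ in depth. Of 27864 identifiers, 15217 had at least 1 RPKM in at least 2 of the 12 libraries and were tested on log2(RPKM + 1) with limma. A gene was called at a Benjamini-Hochberg adjusted p under 0.05. Across tested genes, replicate libraries correlated at a Pearson's r of 0.978 in HJ2 and 0.961 in HJ1, a description across genes, which are not independent. With 2 libraries against 2, an exact two-sided permutation test of a single value cannot go below 0.333, so summed values are given per library without a test.

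In the step to stage 2 more genes fell than rose, and the median fall was larger than the median rise. Limma called 4574 genes, 30.1% of those tested. Of these, 1251 were higher in HJ2, 8.22% of genes tested, and 3323 were lower, 21.8%. The median log2 difference, HJ2 minus HJ1, was 1.07 among the higher genes, with the middle 50% between 0.76 and 1.57. It was -1.33 among the lower genes, with the middle 50% between -1.94 and -0.91. Most genes of each list, 696 higher and 2312 lower ones, changed by an absolute log2 value of 1 or more. Larger changes were a minority in both directions. A change of 2 or more was found in 194 higher and 778 lower genes, and of 4 or more in 36 and 73. Without HJ2 replicate 1 the number of higher genes was 816.

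RPKM is relative to the whole library, and the median log2 difference of all tested genes was -0.21. With libraries rescaled by median ratios, that median lay 0.15 higher. The fit then gave 1645 higher and 2556 lower calls, so the share of higher genes among calls moved to 39.2%, against 27.4% as deposited. All 2556 lower calls after rescaling and 1237 of the higher ones were also called with the deposited values in the same direction. The filter also weighed on the balance, because 743 genes passed it only with the help of HJ1 libraries, and 470 of those were called lower. A further 181 passed it only with the help of HJ2 libraries, and 32 of those were called higher. Such genes could hardly be called in the other direction. With the filter set on YL2, JX2 and ZH2 alone, a choice made after the data were seen, 1188 genes were higher and 2588 lower.

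Abundance classes were set by mean RPKM over all 12 libraries. HJ1 gives only 2 of these, and at the called genes the other groups lie mostly nearer HJ2. Falling genes thus tend to be classed by their lower level and rising genes by their higher one. The lower genes from 3 to 10 RPKM, for example, had a median of 14.1 RPKM in HJ1 and 3.35 in HJ2. How far this sets the balance of rises and falls by class was not tested. The share of genes called increased with abundance from the second class upwards, and falling genes outnumbered rising ones in every class with RPKM as deposited. Under 3 RPKM, 131 of 4398 genes were higher in HJ2 and 862 lower. From 3 to 10 RPKM the numbers were 192 higher and 621 lower of 3993, and from 10 to 30 RPKM 318 and 753 of 3498. From 30 to 100 RPKM they were 331 and 683 of 2267, and from 100 to 300 RPKM 186 and 301 of 793. Among the 268 genes at 300 RPKM and over, 93 were higher and 103 lower, so that 73.1% were called and 47.4% of the calls were higher. In the lowest class 22.6% were called, and 13.2% of the calls were higher. That class holds genes that passed the filter only through HJ1, where they are high. With the filter on YL2, JX2 and ZH2 it had 76 higher and 240 lower genes, with a filter of at least 5 RPKM in at least 2 libraries 18 and 284, and with a pseudocount of 0.1 it had 505 lower genes. Several counts were also smaller with a library left out. That leaves its stage with a lone library and widens the standard error, so a smaller count does not show dependence on that library. Without HJ2 replicate 1, 61 genes were higher under 3 RPKM, 92 were higher and 398 lower from 3 to 10 RPKM, and 173 were higher and 485 lower from 10 to 30 RPKM. Without HJ2 replicate 2 the higher genes numbered 65, 112 and 207 in these 3 classes, and without HJ1 replicate 2 they numbered 77 under 3 RPKM and 210 from 10 to 30 RPKM.

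Median-ratio rescaling turned the balance of the most abundant class and left the next near even. At 300 RPKM and over it gave 113 higher and 77 lower genes, and at 100 to 300 RPKM 242 higher and 238 lower. Below that, falls remained in excess, with 465 higher and 493 lower at 30 to 100 RPKM, 447 and 549 at 10 to 30, 251 and 481 at 3 to 10, and 127 and 718 under 3 RPKM. The other rescaling, by depth without the 10 most abundant genes, gave 110 higher and 84 lower genes at 300 RPKM and over. At 100 to 300 RPKM it gave 231 and 246. The direction of the balance at 300 RPKM and over thus depended on whether libraries were rescaled. At 100 to 300 RPKM the excess of falls as deposited became small or was lost. The size of the excess under 3 RPKM depended on the filter, which rescaling does not change.

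**Figure D1:**
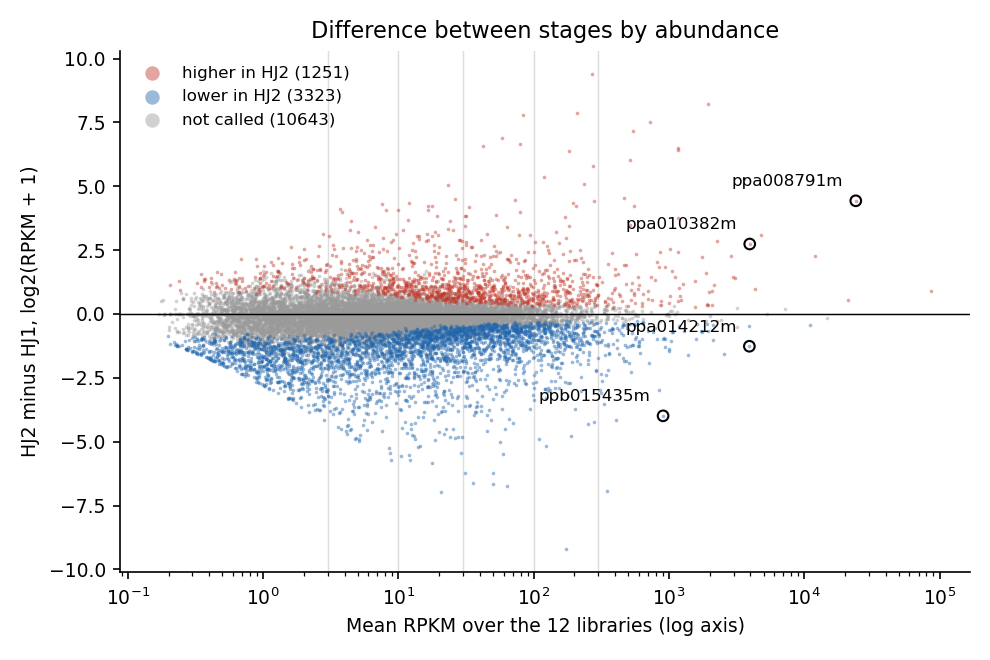
Each point is one of the 15217 tested genes, with mean RPKM over the 12 libraries on a log axis and the log2(RPKM + 1) difference HJ2 minus HJ1 on the vertical axis; grey lines mark the class bounds at 3, 10, 30, 100 and 300 RPKM. The 1251 genes called higher are red, the 3323 called lower blue, and circles mark the 4 genes described individually; the diagonal lower edge on the left is formed by genes with reads mainly in HJ1.

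**Figure D2:**
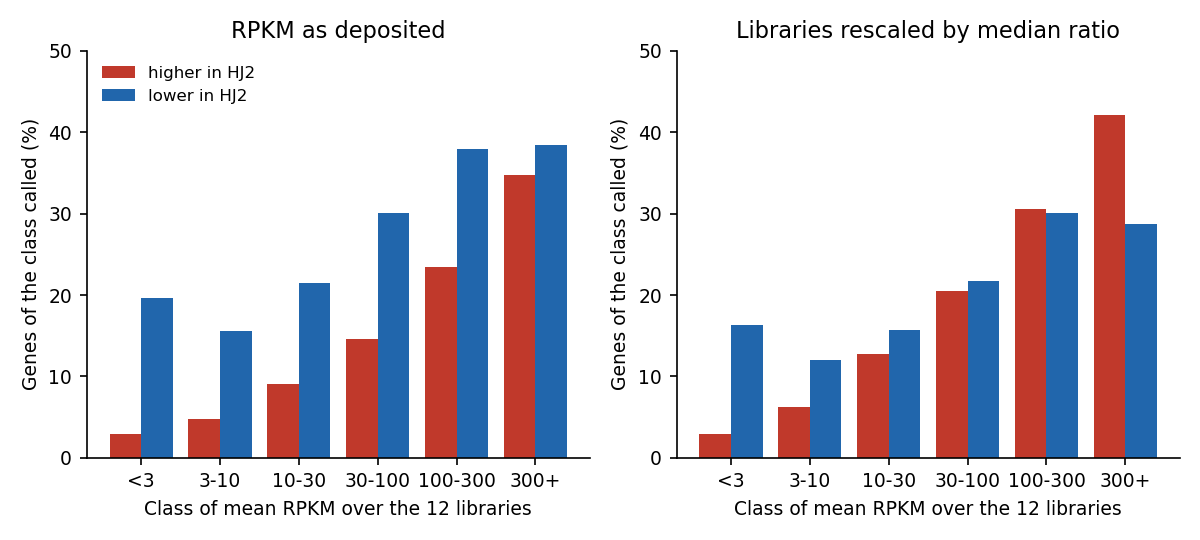
Bars give the percent of genes in each class of mean RPKM that were called higher (red) or lower (blue) in HJ2 against HJ1, with RPKM as deposited on the left and after median-ratio rescaling on the right. In the class of 300 RPKM and over 34.7% were higher and 38.4% lower as deposited, and after rescaling the order of the bars is turned; under 3 RPKM lower genes lead in both panels.

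The classes differ in how well a change could be seen. The median standard error of the log2 difference was 0.386 under 3 RPKM and 0.108 at 300 RPKM and over. Under 3 RPKM, the median gene had 8 reads over both HJ2 libraries and 7 reads over both HJ1 libraries, and at 300 RPKM and over it had 3868 and 2275. The median absolute difference between the stages was 0.543 (log2) under 3 RPKM. Replicates of HJ2 there differed by a median of 0.316 and replicates of HJ1 by 0.442. At 300 RPKM and over the stages differed by a median of 0.688, against 0.0836 between HJ2 replicates and 0.145 between HJ1 replicates. The stage difference is between means of 2 libraries and the replicate difference between single libraries, so they are not like measures. The stage difference exceeded the replicate differences by far more at 300 RPKM and over than under 3 RPKM. The median size of a called change was larger in weak classes, at 1.35 for higher and -1.63 for lower genes under 3 RPKM, against 0.87 and -0.92 at 30 to 100 RPKM, where smaller changes could be called.

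Failing the test did not show that a gene was level. Of the 10643 genes not called, 5226 (49.1%) had a 95% interval of the log2 difference that lay between -1 and 1. For the other 5417 the interval reached a log2 difference of at least 1, and 2681 of these had a mean under 3 RPKM. An estimated difference of at least 1 without a call was found for 454 genes.

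Some calls rest on very few reads in the lower stage. Among the 3323 genes called lower, 214 had 0 reads over both HJ2 libraries and 555 (16.7%) had at most 3. Among the 1251 genes called higher, 90 had 0 reads over both HJ1 libraries and 172 (13.7%) had at most 3. For those genes the direction was called, and the size of the change is not known. Between 4 and 20 reads stood behind a further 628 lower and 200 higher genes.

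Few genes switched between a clear level and nothing. Only 9 genes had at least 10 RPKM in both HJ2 libraries and 0 reads in both HJ1 libraries, with a median of 15.9 RPKM in HJ2 and a highest mean of 223 RPKM. The reverse, 0 reads in both HJ2 libraries and at least 10 RPKM in both HJ1 libraries, was found for 18 genes, with a median of 24.0 RPKM in HJ1. All 27 were called, which follows from choosing them by the libraries that the test used. Of the 9 genes that appeared, 8 had reads in both libraries of HJ3, 8 in both of YL2, 8 in both of JX2 and 9 in both of ZH2. Of the 18 that disappeared, 9 had 0 reads in both libraries of HJ3, 10 in both of YL2, 15 in both of JX2 and 11 in both of ZH2, and 9 had 0 reads in all 6 libraries of the other cultivars. A count of 0 allows up to 3 reads per library, counting error only. For a gene of 1 kb that is 1.23 and 0.931 RPKM in the HJ2 libraries, against 1.54 and 2.49 RPKM in the HJ1 libraries.

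The number of genes detected was lower in HJ2 when depth was made equal. At the 1205215 reads of the shallowest library, 14247 and 14227 genes would be expected with at least 1 read in the HJ2 libraries, against 15065 and 15064 in the HJ1 libraries. The expected numbers were 13912 and 13801 in HJ3, and between 13625 and 13829 in the 6 libraries of YL2, JX2 and ZH2. The replicates of each HJ stage lay closer to each other than the stages did. These counts cover the genes with reads in at least 2 of the 12 libraries.

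The transcript pool, taken as the RPKM sum of a library, became narrower. In HJ2, 172 and 165 genes made up 50% of the pool, against 341 and 333 genes in HJ1. For 90% of the pool 3806 and 3788 genes were needed in HJ2, against 4483 and 4448 in HJ1. Genes at 300 RPKM and over held 53.3% ± 0.375 of the pool in HJ2 and 43.8% ± 0.311 in HJ1 (SD, n = 2 each). Every class below held less of the pool in HJ2, from 17.7% ± 0.113 in HJ2 against 20.8% ± 0.0849 in HJ1 at 100 to 300 RPKM, to 0.816% ± 0.0103 in HJ2 against 1.37% ± 0.0106 in HJ1 under 3 RPKM. The order was the same in all 6 classes when they were set by YL2, JX2 and ZH2 alone, with 51.8% in HJ2 and 39.4% in HJ1 at 300 RPKM and over. That is no independent check, because those cultivars lie nearer HJ2 than HJ1 in the shares held by the called genes. Classes set by them, or by all 12 libraries, therefore favour this order, and how far was not tested.

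With RPKM as deposited, the gain was concentrated in a handful of genes and the loss was spread over many. RPKM is relative to the whole library, and these sums were not repeated after rescaling. Genes called higher gained 177642 RPKM in the mean of HJ2 over that of HJ1, and 9 genes made up 50% of the gain. Genes called lower lost 191925 RPKM, and 136 genes made up 50% of the loss. For 80%, 95 genes were needed on the side of gain and 680 on the side of loss. The first gene alone held 22.7% of the gain, while the first gene on the other side held 3.06% of the loss. Without that first gene, 20 genes made up 50% of the gain. The typical changed gene moved little in absolute terms, with a median gain of 17.9 RPKM and a median loss of 15.0 RPKM. A gain of at least 100 RPKM was found for 179 genes and a loss of that size for 366.

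The upper ranks were reshuffled. Of the 100 genes with the highest mean RPKM in HJ2, 66 were also among the first 100 of HJ1. Limma called 33 of the 34 genes that joined the first 100 in HJ2 higher, and all 34 that left it lower. Within the first 10, 7 genes were shared, and the 3 that joined and the 3 that left were all called. These counts follow from the same values as the test and are a description of rank.

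In the other samples, the called genes held shares of the transcript pool close to those of HJ2. Genes called higher held 42.4% ± 0.12 of the RPKM sum in HJ2 and 18.4% ± 0.888 in HJ1 (SD, n = 2 each). They held 45.5% ± 0.409 in YL2, 46.4% ± 0.447 in JX2, 42.6% ± 0.754 in ZH2 and 44.1% ± 0.815 in HJ3. Genes called lower held 20.6% ± 0.114 in HJ2 and 44.1% ± 0.469 in HJ1, and 22.1% ± 0.0413 in YL2, 18.5% ± 0.146 in JX2, 25.3% ± 0.510 in ZH2 and 22.8% ± 0.336 in HJ3. The HJ2 and HJ1 values chose these genes, so their shares are a description without a test. Without the 10 that gained most, the higher genes held 27.0% in HJ2 and 10.7% in HJ1, and 27.6% in YL2, 28.0% in JX2, 24.3% in ZH2 and 24.6% in HJ3.

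**Figure D3:**
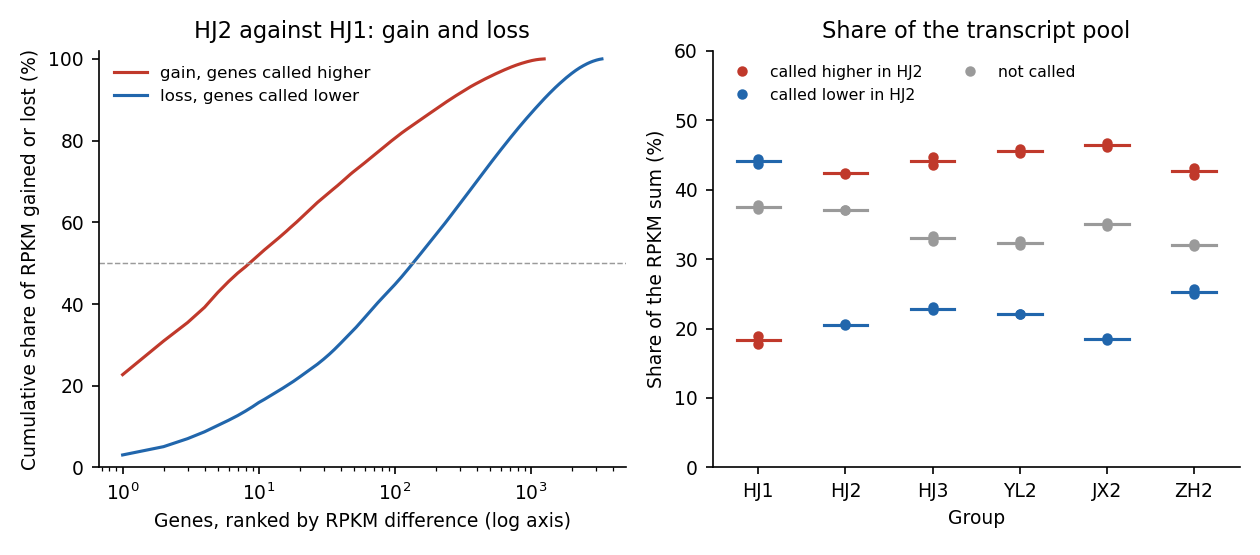
Left, cumulative percent of the RPKM gained by genes called higher (red) and lost by genes called lower (blue) in HJ2 against HJ1, with genes ranked by RPKM difference on a log axis and a dashed line at 50%, which 9 and 136 genes reach. Right, percent of the RPKM sum held by genes called higher, called lower and not called, with a point per library and a bar at the mean of 2; HJ1 stands apart from the other 5 groups in both called lists.

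Gene by gene the picture was less even than in the sums. The median RPKM of the 1251 higher genes was 36.6 in HJ2 and 15.1 in HJ1. Their median was 26.7 in YL2, 29.1 in JX2, 26.2 in ZH2 and 28.0 in HJ3, between both HJ values. The median of the 3323 lower genes was 7.71 in HJ2 and 25.7 in HJ1. It was 7.53 in YL2, 7.5 in JX2, 8.08 in ZH2 and 9.59 in HJ3, near the HJ2 level. Over all tested genes the median was 7.71 RPKM in HJ2 and 9.89 in HJ1, and between 6.26 and 6.84 RPKM in the other 4 groups. The genes were chosen as far apart in HJ2 and HJ1, and how far that choice sets the order of the levels was not tested.

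A like pattern of levels was seen across abundance classes. Libraries outside HJ2 and HJ1 make up most of a class mean, which holds their levels near the class. HJ2 and HJ1 were chosen as far apart, and how far both choices set the pattern was not tested. At 300 RPKM and over, the 93 higher genes had a median of 890 RPKM in HJ2 and 359 in HJ1, with 745 in YL2, 790 in JX2, 730 in ZH2 and 650 in HJ3. From 3 to 10 RPKM, the 192 higher genes had a median of 9.53 RPKM in HJ2 and 2.92 in HJ1, with 5.23 in YL2, 6.56 in JX2, 4.83 in ZH2 and 5.72 in HJ3. The 862 falling genes under 3 RPKM had a median of 0.461 RPKM in HJ2 and 4.19 in HJ1, and between 0.195 and 0.225 RPKM in the other 4 groups, all below what 3 reads of a 1 kb gene are worth in any of the HJ2 and HJ1 libraries. A class mean under 3 RPKM and a filter passed through HJ1 fix low values in the other groups for many of these genes, so no order is read from them. In the falling genes at 300 RPKM and over the median was 384 RPKM in HJ2 and 905 in HJ1, and lay between 365 and 448 RPKM elsewhere.

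**Figure D4:**
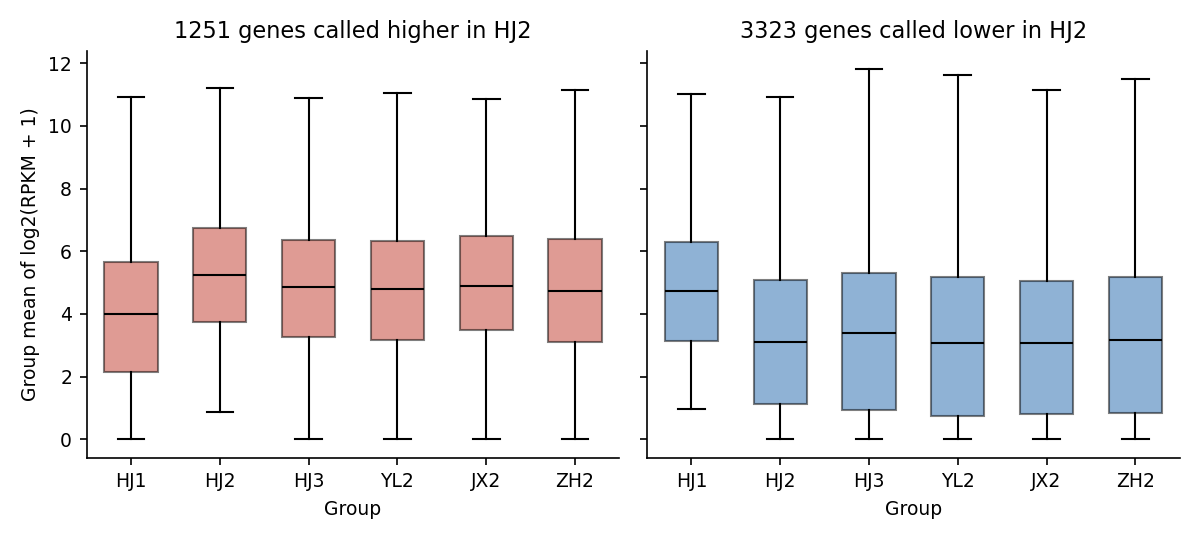
Boxes show the middle 50% and the median of group means of log2(RPKM + 1), with whiskers to the furthest value within 1.5 box lengths, for the 1251 genes called higher (left) and the 3323 called lower (right) in HJ2 against HJ1. HJ2 and HJ1 chose the genes; in the other 4 groups the medians of the higher genes lie between 4.74 and 4.90, and those of the lower genes between 3.07 and 3.38.

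The genes of the step were also looked up in the comparisons among the 3 other cultivars at stage 2. These use no HJ2 or HJ1 level, but they are not independent of the step: all come from a single fit in which a gene has the same standard error in every comparison. Genes with a small standard error are called more easily in all of them, so part of any excess over all genes is built in, and no test of the excess was made. JX2 against YL2 was called for 548 (43.8%) of the higher and 1174 (35.3%) of the lower genes, against 23.9% of all genes tested. ZH2 against YL2 was called for 477 (38.1%) of the higher and 959 (28.9%) of the lower genes, against 18.6% of all. ZH2 against JX2 was called for 422 (33.7%) of the higher and 794 (23.9%) of the lower genes, against 16.6% of all. At least 1 of the 3 comparisons was called for 751 (60%) of the higher and 1589 (47.8%) of the lower genes, against 34.3% of all.

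The shares also moved with abundance. At 300 RPKM and over at least 1 comparison was called for 88.2% of the higher and 81.6% of the lower genes, against 84.3% of the whole class. From 30 to 100 RPKM it was called for 63.4% and 70.3%, against 57.5% of the class, from 10 to 30 RPKM for 57.5% and 57.5%, against 41.7%, and from 3 to 10 RPKM for 45.8% and 36.9%, against 25.4%. Under 3 RPKM it was called for 30.5% of the higher and 12.8% of the lower genes, against 14.2% of the class. From 100 to 300 RPKM at least 1 comparison was called for 79.6% of the higher and 84.1% of the lower genes. Both shares were above that of the class, where 595 of 793 genes were called. The lower genes lay slightly below their class under 3 RPKM and at 300 RPKM and over. Neither gap was tested, and both are small, so they are not read as a property of the falling genes. Under 3 RPKM a filter passed through HJ1 also fixes low values in the other groups for many of them.

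The slight-aroma cultivar ZH2 was set against both strong-aroma cultivars YL2 and JX2, since HJ1 and HJ2 differ in the same label. ZH2 also differs from them in flesh texture and Brix, and these cannot be told apart from aroma or from cultivar. Of the genes that rose in the HJ step, 119 of 1251 (9.51%) were lower in ZH2 than in both others, against 2.73% of all genes tested. The opposite, higher in ZH2 than in both, was found for 58 of them (4.64%), against 3.12% of all. Of the genes that fell in the HJ step, 212 of 3323 (6.38%) were higher in ZH2 than in both, against 3.12% of all, while 79 (2.38%) were lower, against 2.73% of all. After median-ratio rescaling the shares over all genes moved too, to 2.22% lower in ZH2 and 3.91% higher. Of the 1645 genes that then rose, 7.11% were lower in ZH2 and 5.84% higher. Of the 2556 that then fell, 1.84% were lower in ZH2 and 8.53% higher. Both the lists and the shares of all genes changed, so the shift is not read as one of the step's genes. The shared standard error raises the chance of a call in either direction here too, so the shares of all genes are not a like comparison, and no test of the difference between shares was made.

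By class, the rising genes that were lower in ZH2 than in both others made up 1.53% under 3 RPKM, against 0.750% of the class, and 9.90% from 3 to 10 RPKM, against 2.00%. They made up 7.55% from 10 to 30 RPKM, against 2.77%, and 9.06% from 30 to 100 RPKM, against 5.47%. From 100 to 300 RPKM it was 12.9%, against 6.56%, and at 300 RPKM and over 21.5%, against 10.8%. Under 3 RPKM these were 2 of 131 genes, and as many were higher in ZH2 than in both, too few to read. Rising genes higher in ZH2 than in both made up 2.08% from 3 to 10 RPKM, against 1.78% of the class. They made up 3.77% from 10 to 30 RPKM, against 3.34%, and 3.63% from 30 to 100 RPKM, against 5.38%. From 100 to 300 RPKM it was 8.6%, against 8.32%, and at 300 RPKM and over 12.9%, against 10.8%. The falling genes that were higher in ZH2 than in both made up 1.97% under 3 RPKM, against 1.59% of the class, 4.51% from 3 to 10 RPKM, against 1.78%, and 8.23% from 10 to 30 RPKM, against 3.34%. They made up 9.08% from 30 to 100 RPKM, against 5.38%, and 11.3% from 100 to 300 RPKM, against 8.32%. At 300 RPKM and over they made up 8.74%, or 9 of 103 genes, against 10.8% of the class, while 4 genes (3.88%) were lower in ZH2 than in both, also against 10.8%. Falling genes lower in ZH2 than in both made up 6.31% from 100 to 300 RPKM, against 6.56%, and 4.39% from 30 to 100 RPKM, against 5.47%. They made up 1.99% from 10 to 30 RPKM, against 2.77%, and 1.45% from 3 to 10 RPKM, against 2.00%. Under 3 RPKM it was 0.232%, or 2 genes, against 0.750%. Most genes of the step, in either direction, showed no call that set ZH2 apart from both YL2 and JX2.

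Among the genes with the largest RPKM differences, leaving out 5 identifiers named in earlier work on these data, 2 in each direction are given in full. The gene ppa008791m had 15786 and 14895 RPKM in the HJ2 libraries, against 689 and 732 RPKM in the HJ1 libraries. The groups did not overlap, and the ratio of the means was 21.6. Limma gave a log2 difference of 4.43 ± 0.0888 (SE, adjusted p = 7.90e-11). Its rank by mean RPKM was 3 in HJ2 and 127 in HJ1. Outside these stages it was higher still, at 39703 and 38450 RPKM in YL2, 28868 and 26652 in JX2, 33474 and 31523 in ZH2, and 27967 and 29832 in HJ3. All 8 of those libraries lay above both HJ2 libraries. It held 2.01% of the RPKM sum in HJ2 and 0.0898% in HJ1, and 5.37% in YL2.

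The gene ppa010382m had 9339 and 9536 RPKM in HJ2, against 1290 and 1547 RPKM in HJ1. The ratio of the means was 6.65, and the log2 difference was 2.74 ± 0.105 (SE, limma adjusted p = 1.89e-08). It stood at rank 5 in HJ2 and at rank 52 in HJ1. Unlike ppa008791m, it was highest in HJ2: it had 2513 and 2265 RPKM in YL2, 2644 and 2435 in JX2, 3325 and 3175 in ZH2, and 4419 and 4964 in HJ3. Every library of those 4 groups lay above both HJ1 libraries and below both HJ2 libraries.

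The gene ppa014212m had 4217 and 4037 RPKM in HJ2, against 11311 and 8673 RPKM in HJ1. The HJ1 libraries differed more from each other than the HJ2 libraries, and the groups did not overlap. The log2 difference was -1.26 ± 0.125 (SE, limma adjusted p = 2.20e-05), the smallest of the 4. It stood at rank 15 in HJ2 and rank 4 in HJ1. In HJ3 it was far lower, at 753 and 629 RPKM, whereas the other cultivars ranged from 1789 RPKM in a JX2 library to 3811 RPKM in a ZH2 library. Between those cultivars ZH2 was higher than JX2 by a log2 difference of 1.04 ± 0.125 (SE, limma adjusted p = 0.00023).

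The gene ppb015435m had 267 and 255 RPKM in HJ2, against 4516 and 3809 RPKM in HJ1. The ratio of the HJ2 mean to the HJ1 mean was 0.0626, and the log2 difference was -3.99 ± 0.172 (SE, limma adjusted p = 4.55e-08). It went with a rank of 330 in HJ2 and of 13 in HJ1. It had 83.1 and 111 RPKM in YL2, 483 and 532 in JX2, 240 and 342 in ZH2, and 104 and 113 in HJ3, so that JX2 lay above HJ2 and YL2 below it. JX2 was higher than YL2 by a log2 difference of 2.39 ± 0.172 (SE, limma adjusted p = 3.03e-06). All 4 genes kept their direction and their call under each of the 14 alternatives that were run, with the adjusted p of ppa014212m reaching 0.0244 at most.

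**Figure D5:**
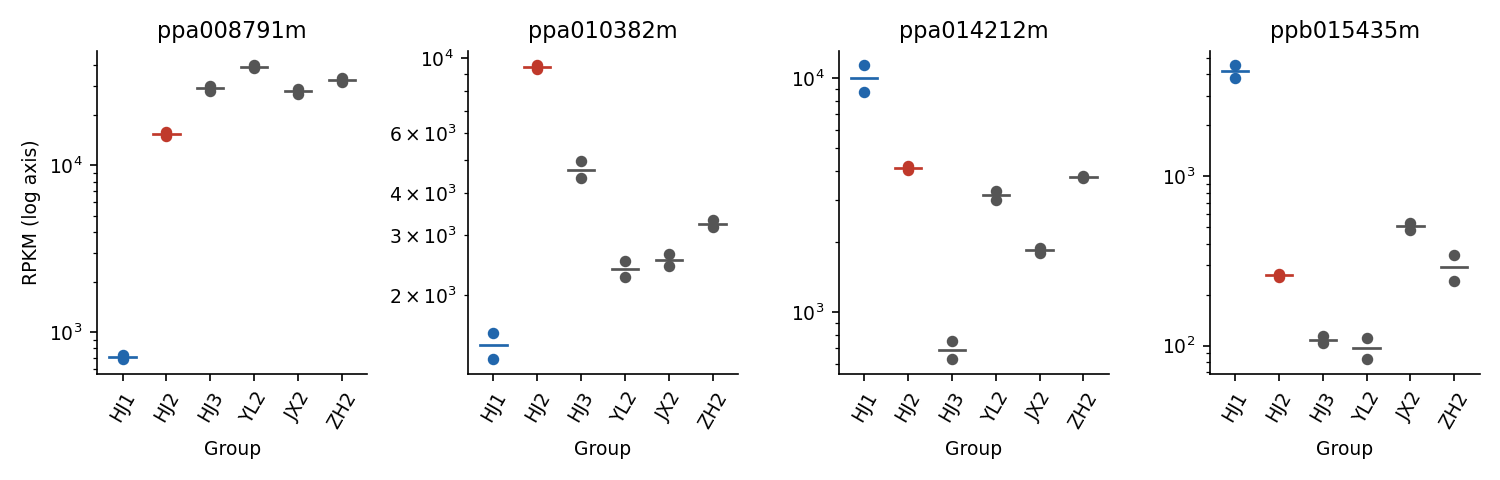
RPKM of the 4 genes in each of the 12 libraries on a log axis with its own range per gene, a point per library and a bar at the mean of 2; HJ2 is red, HJ1 blue and the other groups grey. The gene ppa008791m lies higher in HJ3 and the other cultivars than in HJ2, and ppa010382m is highest in HJ2; ppa014212m and ppb015435m are highest in HJ1.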

How the data were processed

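RNA-seq values of peach fruit mesocarp were used as deposited, a table per library of RPKM per gene identifier, per the file headers. The submitters' processing notes list TopHat 1.4.0, Bowtie 0.12.8, DESeq 1.10.1 and HTSeq 0.5.3 without saying what each did. Neither the build and annotation nor the treatment of strand or shared reads is given in the sources used here, so near-identical or overlapping genes are uncertain.

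RPKM values are whole multiples of what 1 read is worth, from which depths, gene lengths and reads were worked back in Python 3.11.15 (numpy 2.4.6, pandas 2.3.3). Whole reads within 0.001 were found for all 17316 genes above 0 in at least 2 libraries. Reads served for depth, equal-depth detection (an exact expectation, with no draws) and a voom alternative. Floors cover counting error only.

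Limma 3.58.1 in R 4.3.3 was fitted to log2(RPKM + 1), which understates changes of low genes, with 6 group means over all 12 libraries, 6 residual degrees of freedom and variance following the mean. The recovery of reads and the limma fit were both run on simulated data. In the limma simulation only genes with many reads were changed. It therefore does not show how changes in genes with few reads are called. P-values were adjusted by Benjamini-Hochberg over all 15217 genes within each comparison.

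The comparison, classes and rules were chosen with earlier results of these data known. Genes named are called, do not overlap between stages, have a mean of at least 10 RPKM in the higher stage, and have the largest difference in mean RPKM, 2 in each direction, leaving out 5 identifiers named earlier. Gene lists by product name were not used, since 0 identifiers matched the reference table.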

Additional observations from a re-analysis of the deposited data

How the results depend on the processing

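Across 14 alternatives (pseudocounts of 0.1 and 5, 4 filters or library sets, 2 rescalings, voom on whole reads, a replicate block and each HJ2 or HJ1 library left out), no called gene changed direction. The counts of genes called, and of lower genes, stayed within 1.5 times of those reported, at 3146 to 3717 and 2330 to 2615 with a library left out, and 816 to 1102 genes were then higher. With a library left out its stage has a lone library, assumed to vary like the other groups. A pseudocount of 5 gave 396 higher and 1344 lower genes with a log2 difference of at least 1. With the replicate number as a block, limma called 4429 genes; same-numbered libraries shared no deviation (correlations of -0.0667 to 0.0499 over 15 pairs of groups), so the numbers do not pair the samples. After median-ratio rescaling 96 genes higher in HJ2 were higher in ZH2 than in both YL2 and JX2, and 47 genes lower in HJ2 were lower in ZH2 than in both; that second count was 51 to 70 with a library left out. Restricting the lists to a log2 difference of at least 1 left 696 higher and 2312 lower genes. JX2 against YL2 was called for 305 (43.8%) and 752 (32.5%) of these, against 23.9% of all genes tested. ZH2 against YL2 was called for 272 (39.1%) and 608 (26.3%), against 18.6% of all. ZH2 against JX2 was called for 237 (34.1%) and 517 (22.4%), against 16.6% of all. Apart from the smaller lists, causes were not tested. Depth limits the class under 3 RPKM, where the median gene has 8 reads in HJ2 and 7 in HJ1.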

Other observations

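Gene length and identifier type went with small differences in the balance of the HJ step. Among genes of up to 999 bp, 365 were higher and 1222 lower in HJ2 against HJ1, so that 23.0% of calls were higher, against 29.9% from 1000 to 1644 bp and 29.4% above. The share of genes called was 31.3%, 30.6% and 28.3% in these tertiles, and the median log2 difference was -0.30, -0.20 and -0.17. Lengths were worked back from the RPKM steps, and the part of length or RNA quality in the result was not tested. Of the 281 tested identifiers that begin with ppb, 13 were higher and 53 lower (23.5% called), against 30.2% of the 14936 that begin with ppa.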
